A study of Mus musculus with 8 samples.

Results

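Immediate early genes are transcribed within minutes of a stimulus without new protein synthesis, and 10 of them were followed here through all clusters and libraries of a single-cell RNA-sequencing study of mouse stroke. They were chosen by name and make up 10 of the 30406 genes that all libraries share. Fos, Fosb, Jun, Junb and Jund encode subunits of the transcription factor AP-1. Egr1 encodes a zinc finger transcription factor and Atf3 a stress-responsive factor of the ATF/CREB family. Ier2 encodes a nuclear early response protein. Dusp1 encodes a phosphatase that switches off MAP kinases, and Zfp36 encodes a protein that binds AU-rich messenger RNAs and speeds their decay. In microglia and macrophages these genes respond to growth factors, cytokines and injury signals through MAP kinases, SRF and CREB. They are also known to be induced when tissue is digested at 37 °C, and a single-cell measurement reads both inductions together.

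The cells were CD45+ leukocytes from wild-type male C57BL/6 mice of 10 to 16 weeks, sorted for the absence of an intravascular CD45 label, so that they lay outside the blood vessels. There were 8 libraries, namely brain parenchyma, pia and dura from control mice and from mice 24 h after transient middle cerebral artery occlusion (MCAO), and brain 72 h after MCAO, with a second library only for brain at 24 h. The occlusion lasted 30 or 45 min, cells of several mice were pooled (5 mice per compartment in all, the number per library not being stated), and the sources call the control mice both naive and sham-operated. One label of the control pia library names brain and its other labels name pia. Brain was digested for 20 min with 2.5 mg/ml collagenase and cleared of myelin on Percoll, pia and dura for 45 min with 1 mg/ml, so tissue and preparation cannot be told apart.

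The 8 libraries held 36854 barcodes, of which 32457 carried a cluster in the deposited annotation, and 6591898 to 20754181 unique molecular identifiers (UMIs) each. Values are CPM: the UMIs of a gene summed over the cells of a library or cluster, per 1000000 UMIs of those cells. The annotated names were kept. All 61 of 61 checks of a cluster's marker genes against the other clusters found the marker above their median, and 34 found it the highest of all clusters. Many of these markers were used by the study to name the clusters from the same counts, so the checks are no independent support. The libraries fall into sets by their gene list. Brain 24 h replicate 2 and brain 72 h were deposited with 31053 genes, the other 6 libraries with 32285. The shorter-list libraries had a higher share of mitochondrial UMIs than the other brain libraries (2.37% and 1.89% against 0.865% and 0.771%) and more summed UMIs of 9 genes of cells that the sort should leave out (618 and 378 CPM, against 15.1 to 122 CPM in the other 6), mostly haemoglobin and myelin genes. Barcodes recurred within the longer-list libraries (10 to 32 per pair), within the shorter-list pair (8) and hardly between both sets (0 to 2). Both shorter-list libraries are brain after MCAO, so results that rest on them are given with and without them, and the part of the library set in each result was not tested apart from what is stated.

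Upstream sequence is shown for Fos, Fosb, Dusp1 and Zfp36, because Fosb and Zfp36 moved against Dusp1 between the replicates of brain 24 h. Fos had no common direction over the clusters, being higher in 6 and lower in 4 in replicate 2. RefSeq windows (GRCm38.p6) matched 8 of the 10 genes, and Egr1 and Ier2 had no entry. Each line below gives the 150 bases before the annotated start, 5′ to 3′ on the gene's strand, and positions count back from -1 at the last base. Capitals mark matches, on either strand, to the cAMP response element TGACGTCA (CRE), its part TGACG, the EGR element GCGGGGGCG, TATAAA or a CArG box, which SRF binds. The Fos window is chr12:85473740-85473889 (+), Fosb chr7:19310046-19310195 (-), Dusp1 chr17:26508473-26508622 (-) and Zfp36 chr7:28379229-28379378 (-).
Fos: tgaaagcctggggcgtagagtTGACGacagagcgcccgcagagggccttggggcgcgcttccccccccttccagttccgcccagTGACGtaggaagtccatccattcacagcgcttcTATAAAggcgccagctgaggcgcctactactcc
Fosb: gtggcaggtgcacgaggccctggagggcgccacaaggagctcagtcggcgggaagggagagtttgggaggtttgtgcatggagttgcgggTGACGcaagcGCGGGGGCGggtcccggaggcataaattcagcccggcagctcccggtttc
Dusp1: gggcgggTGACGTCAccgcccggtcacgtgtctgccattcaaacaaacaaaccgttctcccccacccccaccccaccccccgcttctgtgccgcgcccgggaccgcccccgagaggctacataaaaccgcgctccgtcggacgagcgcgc
Zfp36: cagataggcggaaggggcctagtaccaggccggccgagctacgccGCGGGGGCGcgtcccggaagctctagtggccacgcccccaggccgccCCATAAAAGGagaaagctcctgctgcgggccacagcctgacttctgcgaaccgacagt

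Dusp1 held the full CRE at -143 to -136, Fos held TGACG at -66 to -62, Fosb at -60 to -56, and Zfp36 held a CArG box at -58 to -49. The EGR element stood in Fosb (-50 to -42) and Zfp36 (-105 to -97). Within 250 upstream bases, TGACG occurred in 5 of the 8 windows of these genes against 17.8% of all 32851 RefSeq windows, the EGR element in 2 against 2.57%, the CRE in 1 against 1.55%, the CArG box in 1 against 1.47%, TATAAA in 1 against 12.4%, and the AP-1 site TGACTCA in 0 against 4.46%. Bases further upstream than these 250 were not searched, so a motif without a match here may still stand there. Among the windows not shown, Atf3, also higher in replicate 2, had no EGR element. Junb, lower there like Dusp1, held TGACG at -106 to -102. A match is a description of letters and not a bound site, and no link between motifs and the differences between replicates was tested.

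The 10 genes together took 5.34% of the UMIs of control brain. Each had its highest level in a brain library. Their share was 4.26% and 2.49% in the replicates of brain at 24 h, 1.21% in brain at 72 h, 2.21% and 1.65% in pia of control and 24 h mice, and 1.37% and 1.5% in dura. The nuclear RNAs Malat1 and Neat1, listed as signs of RNA quality, were in the same order of libraries when summed, at 71941 CPM in control brain, 56225 and 40167 in brain at 24 h, 19829 at 72 h, 32102 and 27984 in pia, and 26364 and 26983 in dura, nearly all of it Malat1. The mix of cells differed too. Microglia were 3733 of the 4297 annotated cells of control brain and 1027 of 6049 at 72 h. At 24 h they were 2998 of 4582 and 1998 of 3468. The parts of RNA quality and of the mix of cells in the members' levels were not tested. For brain, Fos stood at 9465 CPM in the control library, 5123 and 2751 at 24 h, 1964 at 72 h, 1904 and 801 in pia of control and 24 h mice, and 1057 and 752 in dura. Control pia lay just below brain at 72 h for Fos, and with clusters weighted equally instead of by their cells it lay above brain at 72 h and replicate 2 (2713 CPM against 2312 and 2596). Among the AP-1 genes, Fosb was highest in replicate 2 of brain 24 h (1740 CPM, against 482 in replicate 1 and 899 in control brain). Junb in dura at 24 h (6936 CPM) lay below control brain (9100) and replicate 1 (8641) and above replicate 2 (2320) and brain at 72 h (1497). With that weighting, 8 of the 10 genes kept their highest level in a brain library. The least covered value, Egr1 in dura at 24 h, rests on 621 UMIs, and the 95% Poisson interval of any of these library values is at most 7.95% wide on either side. Such intervals cover counting error only.

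Microglia carried the most of these transcripts. Micro_2, 1 of the microglia clusters, had 68877 ± 9940 CPM of the 10 genes summed (SD, n = 6 libraries with at least 30 of its cells), 11.4 times the level of the granulocyte cluster Granulo_2 (6060 ± 3486, n = 6). Mast cells (56646 ± 23355, n = 2), stress_Myeloid (56054 ± 5668, n = 3) and stress_Micro (43441 ± 1356, n = 2) followed, then Micro_3 (40924), Micro_1 (37927), the innate lymphoid cells ILC2 (29918) and the border macrophages CAM_1 (26236). Below them lay gdTc (19018), Macro_2 (18366), NK (15093), Tc (14602), CAM_2 (11480), the stroke-associated myeloid cells SAMC (11409), mDC2 (10945), Bc (10815), Macro_1 (10657, n = 1), Granulo_1 (8968), prolif_cells (7888) and mDC1 (7716). Of the 20 pairs of neighbours in this order, 19 overlapped between libraries, so single ranks are not resolved while the ends are far apart. Because these very counts also defined the clusters, the levels are a description.

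Each gene had its own order of clusters. Fos and Jun were highest in Micro_2 (9188 ± 3513 and 14792 ± 1961 CPM, n = 6) and lowest in Granulo_2 (411 and 454 CPM), a 22.4-fold and 32.6-fold range. Jund, Dusp1 and Zfp36 were also highest in Micro_2 (10707, 9628 and 1522 CPM). Fosb, Egr1 and Atf3 led in stress_Micro (3571, 5964 and 3996 CPM, n = 2), a cluster with 95.2% of its 727 cells from the shorter-list libraries, and came next in Micro_2 (2186, 3386 and 3025 CPM), so that 8 of the 10 genes were highest in a microglia cluster (5 of the 10 with a minimum of 10 cells). Junb and Ier2 went another way: both were highest in mast cells (17916 and 3826 CPM, n = 2, both dura and longer-list), and ILC2 came next for Junb (16383 CPM). In dura at 24 h ILC2 lay above mast cells for both genes. Mast cells had the lowest mean for Atf3 (21.6 CPM) and were high in Jun (12572 CPM). These means come from different libraries: Atf3 was higher in the shorter-list libraries, and within the dura libraries B cells (6.46 CPM in control and 6.91 at 24 h) lay below mast cells (36.2 and 6.98). Likewise Macro_1 had the lowest means for Junb, Jund and Ier2 (1228, 784 and 240 CPM) and was measured only in brain at 72 h, where SAMC (552, 403 and 112 CPM) and CAM_2 (774, 507 and 152 CPM) were lower. Within single brain libraries, Micro_2 was the highest cluster for 10 of 10 genes in both replicates at 24 h, for 9 at 72 h and for 8 in control brain.

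**Figure D1:**
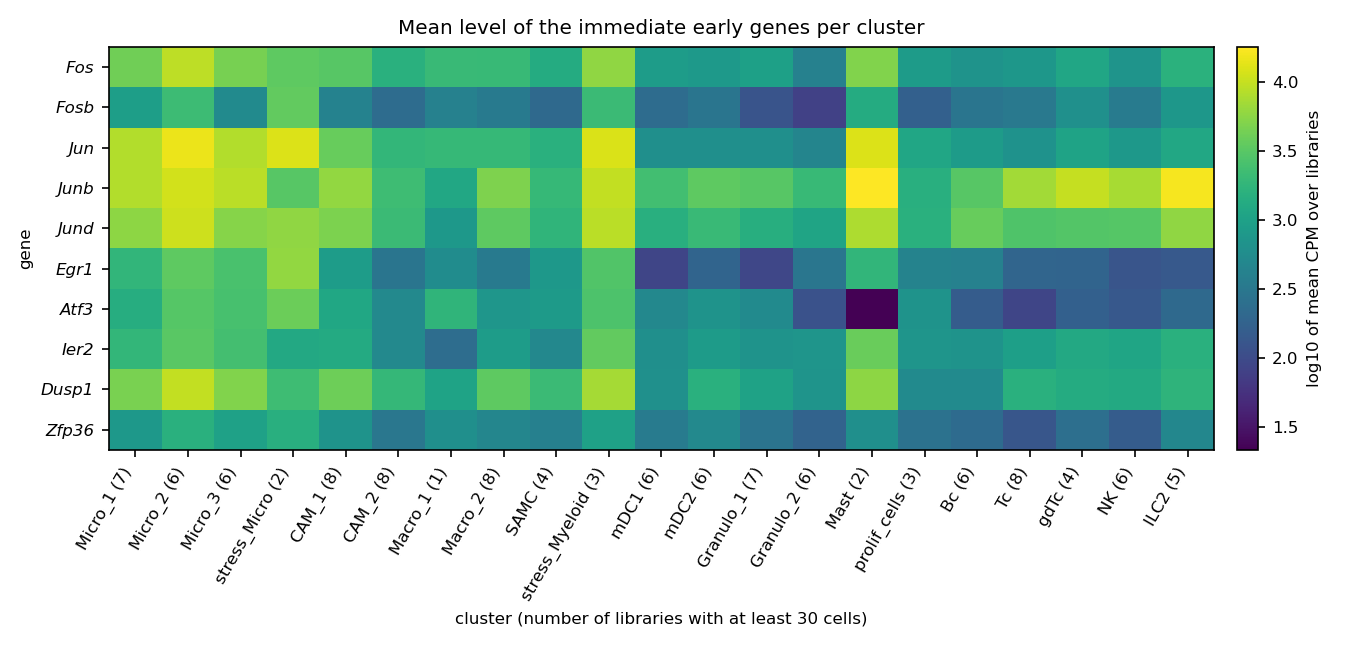
Colour gives the log10 of each gene's mean CPM over libraries (rows) in the 21 annotated clusters (columns, with the number of libraries of at least 30 cells), to be read along a row. The microglia clusters and stress_Myeloid are bright in most rows, mast cells are bright for Junb and dark for Atf3, and Granulo_2 has the lowest mean for Fos, Fosb and Jun and lies mid-range for Egr1 and Ier2.

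At an equal depth per cell, control brain and brain at 24 h held the most of these genes per cell, and brain at 72 h was close to control pia. After each cell had been thinned at random to 500 UMIs (0 to 30 cells left out per library), a cell of control brain had UMIs of 6.51 of the 10 genes on average, against 5.60 and 5.74 for brain at 24 h (replicates 1 and 2), 3.80 at 72 h, 3.67 and 3.03 in pia of control and 24 h mice, and 2.97 and 2.98 in dura. Without thinning these means were 8.34, 7.64, 7.69, 7.05, 5.83, 4.89, 4.88 and 4.49. Cells with at least 5 of the genes made up 89.2% of control brain and 15.7% of dura at 24 h after thinning, and brain at 72 h (32.4%) lay below control pia (34.2%) by that count. By cluster the thinned mean ran from 7.55 genes in Micro_2 to 2.27 in Granulo_2. The library means therefore also carry the mix of clusters. Within Micro_2 the mean was 7.37 in control brain, 7.34 and 8.06 at 24 h and 8.09 at 72 h. Within CAM_1 it was 6.99 in control brain, 4.92 and 5.06 at 24 h and 4.02 at 72 h. Egr1 was seen in 63.6% of thinned cells of brain 24 h replicate 2, 46.8% of control brain and 3.0% of dura at 24 h (79.2%, 79.1% and 8.7% unthinned). Thinned to 1000 UMIs, which left out 1600 of the 3468 cells of replicate 2, its share was 58.0% and that of control brain 69.8%, so no order between these libraries is read from the share. No cell type is known to lack these genes, so the share that comes from free RNA in the droplets was not measured.

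The level of these genes also moved with the library within a cluster. In the 112 sums of a library and cluster with at least 30 cells, on the scale log2(CPM + 10), the cluster took from 39.4% (Fosb) to 64.4% (Jund) of the sum of squares given the library, and the library took from 16.8% (Jund) to 43.7% (Fosb) given the cluster. Over 2985 genes with a mean of at least 50 CPM the medians were 45.6% and 19.4%. The cluster share was the larger for 9 of the 10 genes, Fosb being the exception. Of the library share, 93.1% for Junb, 88.5% for Ier2, 88.0% for Fosb, 84.9% for Zfp36 and 83.6% for Atf3 lay between the shorter-list and the longer-list libraries, against a median of 60.7% over all those genes. For Fos, Jun and Dusp1 this part was 39.3%, 46.2% and 12.7%.

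**Figure D2:**
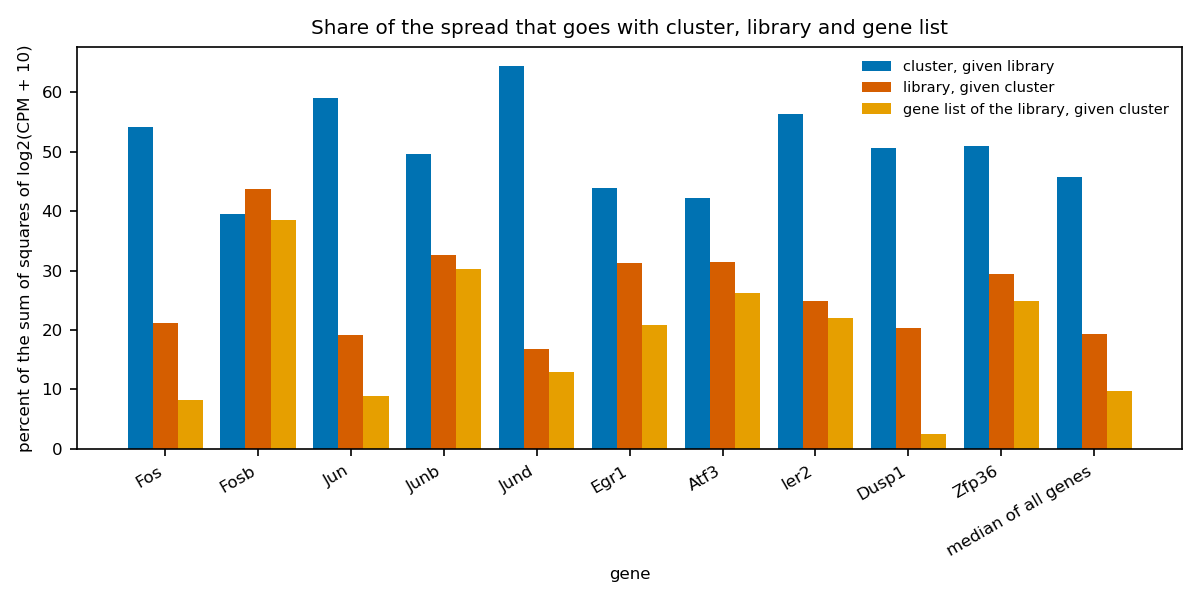
Bars give, for each gene and for the median of all genes, the percent of the sum of squares of log2(CPM + 10) over 112 sums that goes with cluster given library, with library given cluster, and with the gene list of the library given cluster. Fosb is the only one of the 10 genes whose library bar (43.7%) is above its cluster bar (39.4%), and for Junb and Fosb the gene-list bar comes close to the library bar.

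The replicates of brain at 24 h share tissue, time and preparation in the labels. They differed in 8 of these genes in at least 9 of 10 clusters, 4 being higher and 4 lower in replicate 2. The share of all genes that did so was not counted. Over the 10 clusters with at least 30 cells in both, Atf3 was higher in replicate 2 by a median log2 ratio of 2.16 (9 of 10 clusters), Fosb by 2.06 (9 of 10), Zfp36 by 1.6 (10 of 10) and Egr1 by 1.44 (10 of 10). Junb (median -1.81), Dusp1 (-1.62), Ier2 (-1.34) and Jund (-0.85) were lower in replicate 2 in 10 of 10 clusters. Fos (0.01) and Jun (0.08) were higher in 6 and lower in 4. For example, in microglia summed Fosb stood at 718 CPM in replicate 1 and 3818 in replicate 2, Egr1 at 1433 and 6751, Dusp1 at 11682 and 2811, and Junb at 11510 and 3179, while Jun stood at 13041 and 13958. Fos was lower in replicate 2 in these cells, at 7286 and 4496 CPM, although its median over clusters was near 0. Such differences were common in these libraries: Egr1 and Zfp36 were 2 members higher in all 10 clusters with a median past 2-fold, as were 16.1% of 3168 genes, and Junb, Ier2 and Dusp1 were 3 members lower by that rule, as were 15.3%. The level of Fosb or Dusp1 in a brain library after MCAO therefore depends on which replicate is read.

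**Figure D3:**
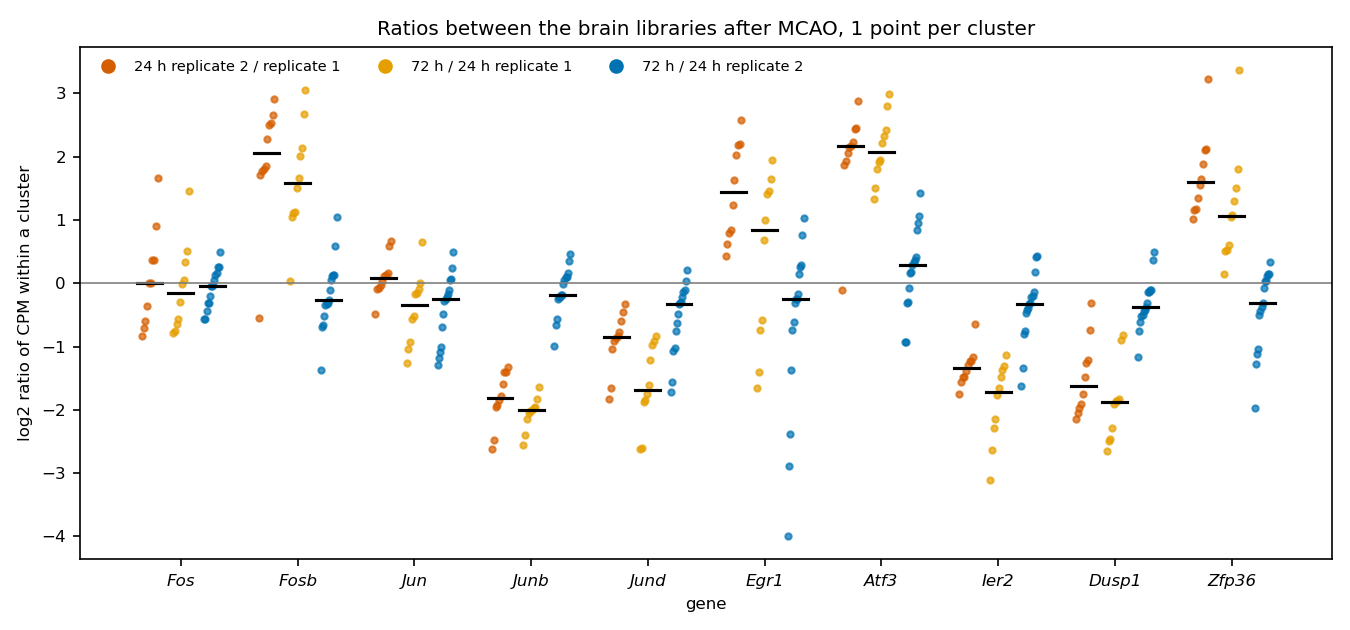
Each point is 1 cluster, and its height is the log2 ratio of a gene's CPM between 2 brain libraries after MCAO, with a bar at the median. Against replicate 1, the points of Junb, Jund, Ier2 and Dusp1 lie below 0 and those of Zfp36 above 0 for both shorter-list libraries, the medians of Fosb, Egr1 and Atf3 lie above 0 (Egr1 at 72 h being below 0 in 4 of 10 clusters), and the ratio of 72 h to replicate 2 has medians from -0.38 (Dusp1) to 0.28 (Atf3).

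Brain at 72 h lay close to replicate 2 and far from replicate 1. Over 15 clusters the median log2 ratio of 72 h to replicate 2 was between -0.38 (Dusp1) and 0.28 (Atf3), whereas against replicate 1 (10 clusters) it was 2.08 for Atf3, 1.59 for Fosb, -2.01 for Junb and -1.88 for Dusp1. In edgeR's quasi-likelihood fit to the summed UMIs of a class, with tissue and time as terms and a call at an adjusted p (Benjamini-Hochberg) under 0.05 and a fold of at least 2, 0 of the 10 genes were called between 72 h and 24 h in microglia, macrophages, dendritic cells or T cells (0% of all genes in each class). At an unadjusted p under 0.05 there were 0, 3, 0 and 2 of the 10, and DESeq2 called 0 in each class. This fit has 3 residual degrees of freedom (2 in dendritic cells) and counts the gap between the replicates as error. With the gene list as a further term, chosen after seeing the data, 72 h is in effect compared with replicate 2 alone. That fit has 2 residual degrees of freedom (1 in dendritic cells). Egr1 then fell in macrophages, with a log2 fold change of -2.58 ± 0.37 (SE, edgeR, adjusted p = 0.010, 1.75% of genes called), and rose in T cells by 1.10 ± 0.27 (edgeR, adjusted p = 0.017, 0.22%). The other 9 genes were not called in these classes, and 0 of 10 were called in microglia (4.66% of genes) and dendritic cells (0.366%).

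Egr1 in macrophages stood at 1608 CPM in replicate 2, 653 in replicate 1 and 217 at 72 h, and its ratio of 72 h to replicate 2 was below 0 in each of the 4 macrophage clusters measured (log2 -2.38 in CAM_1, -2.89 in CAM_2, -1.38 in Macro_2 and -3.99 in SAMC). In the microglia clusters that ratio was between -0.74 and -0.18. The 72 h group is 1 library, so time and library cannot be told apart.

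The gene-list term itself compares replicate 2 with brain at 24 h as the tissue and time terms give it from the longer-list libraries. Replicate 1 is only 1 of these. In microglia the term called 7 of the 10 genes (4 higher and 3 lower in the shorter-list libraries, 48.2% of genes called). It called 8 in macrophages (4 and 4, 34.1%), 6 in dendritic cells (3 and 3, 13.1%) and 7 in T cells (4 and 3, 13.4%). Atf3, Fosb and Zfp36 were called higher and Junb lower in 4 of 4 classes. Egr1 was called higher and Dusp1, Ier2 and Jund lower in 3 of 4. Fos and Jun were called in none of the 4, with log2 fold changes between -0.86 and 0.93. Of other genes, Ptprc, which encodes CD45, was called higher in the shorter-list libraries in 4 of 4 classes, and so were the haemoglobin genes Hbb-bs and Hba-a1, which leukocytes do not make.

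After MCAO at 24 h, Fos, Egr1 and Atf3 were mostly below control within the longer-list libraries, and Junb and Jund were not. Over 35 pairs of libraries within a tissue and cluster, Egr1 and Atf3 were lower at 24 h in 29 each, Fos and Fosb in 28, Dusp1 and Zfp36 in 27, Jun in 21 and Ier2 in 17. Jund and Junb were lower in 10 and 9 and higher in 25 and 26. Median log2 ratios were -0.95 for Egr1, -0.65 for Atf3, -0.60 for Fos, -0.59 for Zfp36, 0.14 for Jund and 0.23 for Junb. These pairs share libraries, so they are not replicates of each other. The study's supplementary list gives 10x kit version 3 for the dura 24 h library and version 2 for its control. By that list, time and kit cannot be told apart in dura. The dura 24 h library shared 12 to 27 barcodes with the other longer-list libraries and 1 with brain 72 h, also listed as version 3. In brain and pia, both listed as version 2, Egr1 was lower in 7 of 7 and 13 of 14 clusters. Atf3 was lower in 7 of 7 and 10 of 14, and Fos in 6 of 7 and 12 of 14. Of genes at 50 CPM or more, 8.04% of 2947 were lower in all 7 clusters of brain. In pia 1.65% of 2722 were lower in all 14. The shares of all genes for the other counts of clusters and pairs here were not computed. Junb was higher in 5 of 7 clusters of brain and 8 of 14 of pia, against 13 of 14 of dura.

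**Figure D4:**
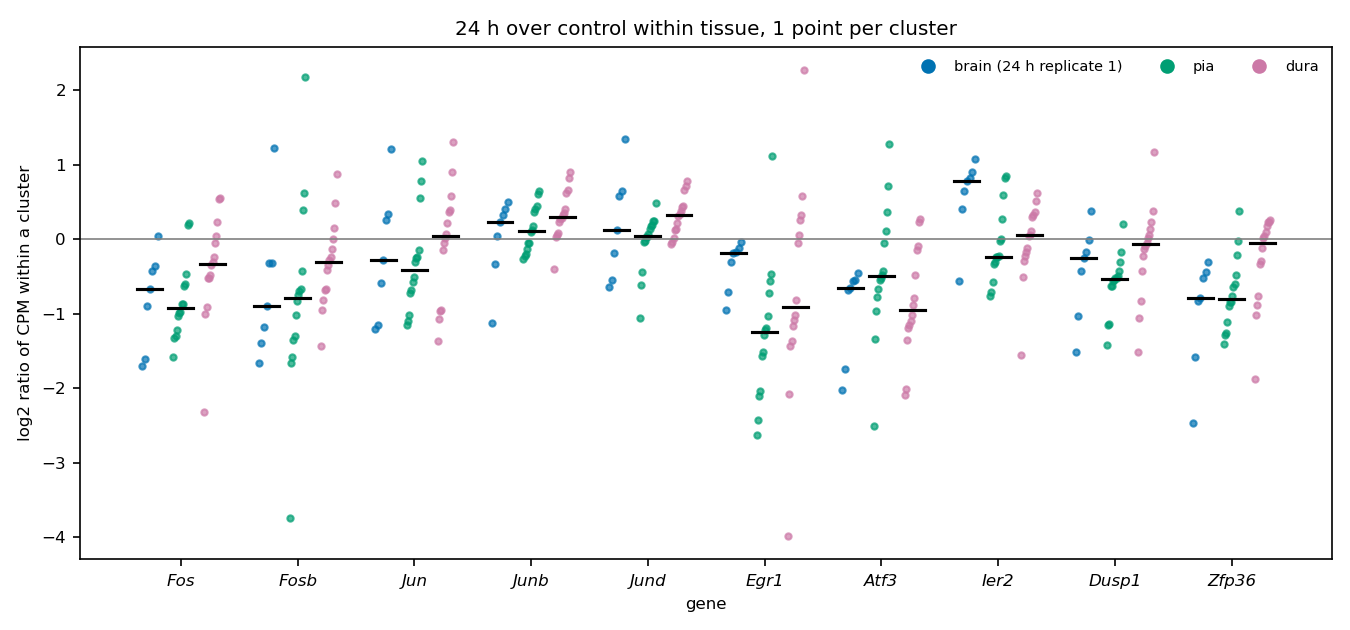
Each point is 1 cluster in brain (24 h replicate 1 over control), pia or dura, and its height is the log2 ratio of a gene's CPM at 24 h to control, with a bar at the median per tissue. Most points of Fos, Egr1 and Atf3 lie below 0, and most points of Junb and Jund lie around or above 0.

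Summed by class, Fos in microglia stood at 9886 CPM in control brain and 7286 in replicate 1 at 24 h, at 5865 and 2948 in pia of control and 24 h mice, and at 5274 and 2464 in dura. In macrophages Fos stood at 7207 and 2586 CPM in brain, 1641 and 754 in pia, and 1341 and 955 in dura, and Egr1 at 1207 and 653, 335 and 127, and 242 and 93.9. Both genes were lower at 24 h in each tissue, and the control libraries of pia and dura lay below those of brain. In microglia 6 of the 10 genes (Fos, Fosb, Egr1, Atf3, Dusp1 and Zfp36) were lower in all 3 tissues, as were 19.1% of genes at 50 CPM or more. In macrophages 8 of 10 were, all but Junb and Jund (21.1% of genes). In dendritic cells 7 of 10 were lower in pia and dura, the tissues with enough cells in both groups (23.8%), and in T cells 1 of the 8 genes at 50 CPM or more, Egr1, was (16.8%). Junb and Jund were higher in all 3 tissues in microglia and T cells, 2 of 10 and 2 of 8 members, as were 26.9% and 17.9% of genes. No member was higher in all tissues measured in macrophages (38.5% of genes) or dendritic cells (40% of genes). The listed difference of kit in dura applies to these counts and to the fits that follow. Replicate 2 at 24 h went against this for 4 genes: over the 7 clusters it shared with control brain, Fosb, Atf3 and Zfp36 were higher than control in 7 and Egr1 in 6. With a median past 2-fold as a further condition, 2 members (Fosb and Atf3) were higher in all 7, as were 20.3% of 3219 genes.

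**Figure D5:**
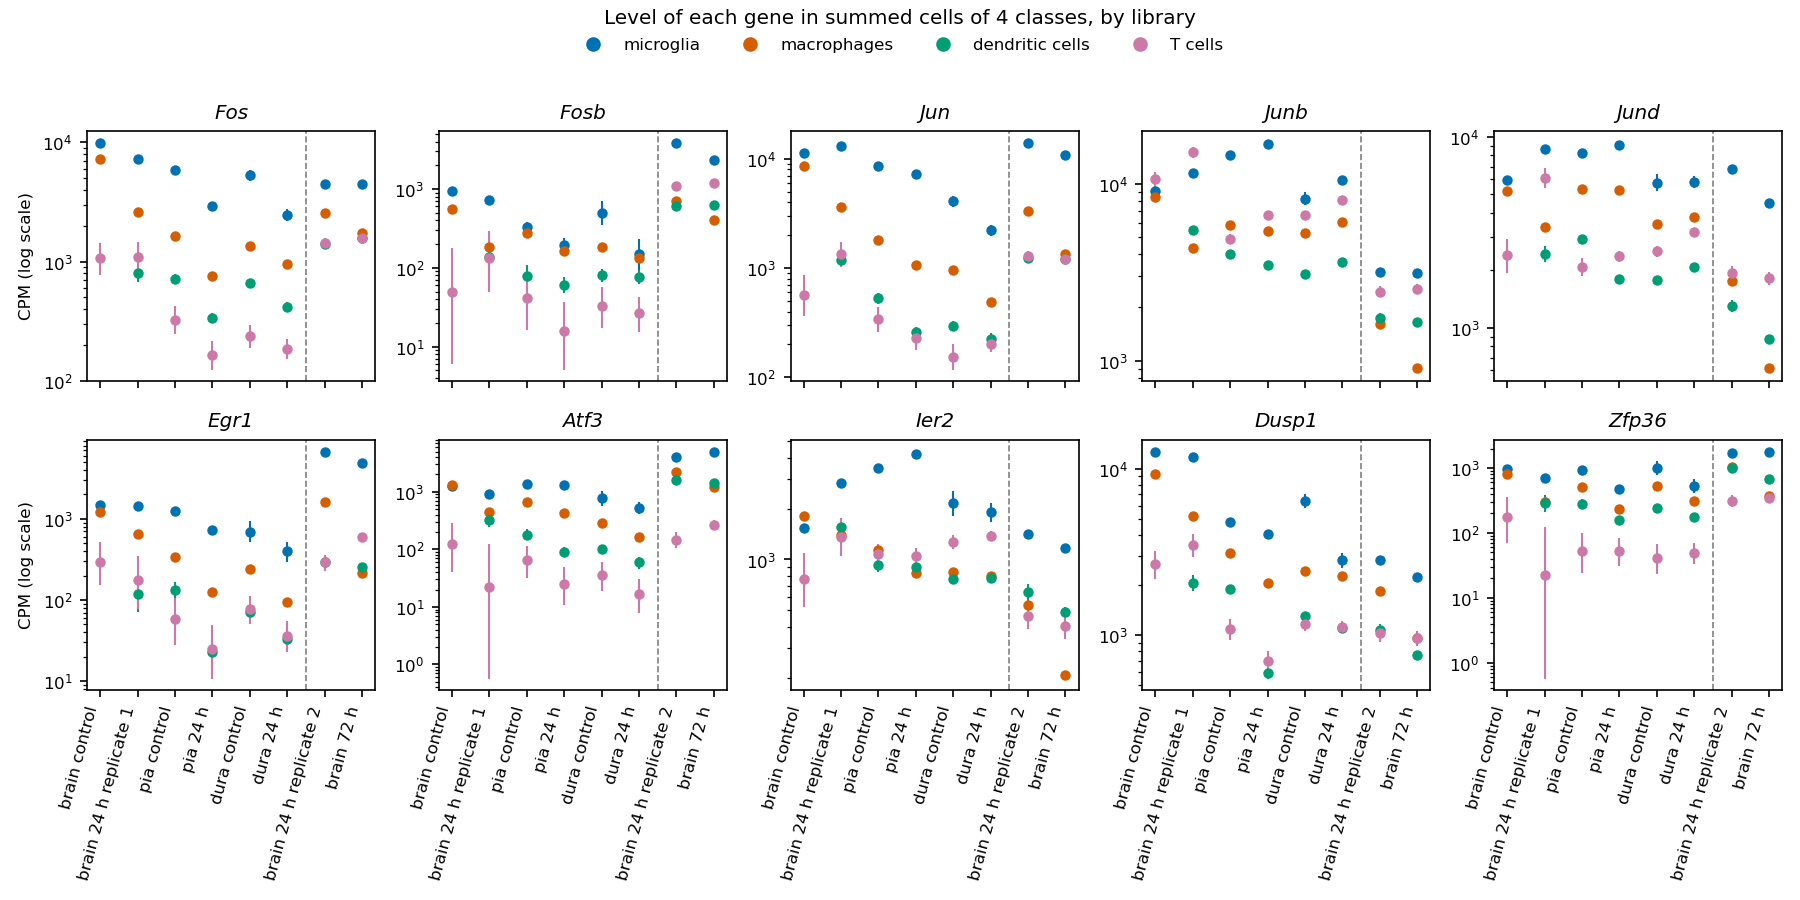
Each point is a gene's CPM (log scale) in the summed cells of a class in 1 library, with its 95% Poisson interval, for the longer-list libraries left of the dashed line and both shorter-list libraries right of it. Microglia lie above macrophages, dendritic cells and T cells for Jun in each library, and the right-hand microglia points stand above the others of their class for Fosb and below them for Junb.

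No change at 24 h was called across all 8 libraries. In edgeR's fit with tissue and time as terms, 0 of 10 genes were called in each of the 4 classes (0% of genes in each). At an unadjusted p under 0.05 there were 1 in microglia (Fos), 2 in macrophages (Fos and Jun), 1 in dendritic cells (Egr1) and 0 in T cells, and DESeq2 called 0. The log2 fold changes were -0.99 ± 0.42 (SE) for Fos in microglia and -1.15 ± 0.40 in macrophages, and -1.85 ± 0.62 for Egr1 in dendritic cells.

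With the gene list as a term, 3 genes fell in macrophages at 24 h (2.24% of genes called). That term takes up replicate 2, so the changes at 24 h in this fit rest on the longer-list libraries. By edgeR's test, Egr1 fell by 1.22 ± 0.21 on the log2 scale (adjusted p = 0.020), Zfp36 by 1.11 ± 0.20 (adjusted p = 0.025) and Fos by 1.04 ± 0.24 (adjusted p = 0.046). In dendritic cells Egr1 fell by 1.82 ± 0.31 (edgeR, adjusted p = 0.00024, 1.77% of genes called). In T cells 0 of 10 were called (0.409%). In microglia 0 of 10 were called (2% of genes). There, Fos at -0.85 ± 0.18 (edgeR, adjusted p = 0.00019), Fosb at -0.81 ± 0.20 and Zfp36 at -0.77 ± 0.18 passed the adjusted p and missed the 2-fold limit. The fit to the 6 longer-list libraries alone is much the same comparison and not a separate check. There, Egr1 was the only 1 of the 10 called in macrophages (-1.25 ± 0.19, edgeR, adjusted p = 0.042) and in dendritic cells (-1.82 ± 0.37, edgeR, adjusted p = 0.035). Over all genes, 35 were called higher and 33 lower of 9635 in macrophages, and 44 and 49 of 8008 in dendritic cells. In dendritic cells both Egr1 calls rest on 1 residual degree of freedom and on controls of pia and dura alone. The fits in macrophages had 2 residual degrees of freedom. In macrophages of replicate 2, Egr1 (1608 CPM) and Zfp36 (1030 CPM) lay above control brain (1207 and 808 CPM). Fos lay below it, at 2552 against 7207 CPM. Whether microglia and macrophages differ in these changes at 24 h was not tested.

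Between tissues, Egr1, Jun and Fos were lower in pia and dura than in brain in T cells, and Egr1 and Jun in macrophages. In T cells Egr1 stood at 298, 179, 291 and 594 CPM in the brain libraries (control, both replicates at 24 h and 72 h), at 58.4 and 24.9 in pia and at 77.2 and 36.3 in dura. Fos in T cells stood at 1067, 1095, 1425 and 1566 CPM in brain, 327 and 165 in pia, and 237 and 187 in dura. In these values neither gene overlapped between brain and the other tissues, and both shorter-list libraries lay with the other brain libraries. The share of all genes without such overlap was not counted. Egr1 rests on 12 UMIs in control brain (31 cells) and 8 in replicate 1 (33 cells). The Poisson interval of replicate 1 (77.2 to 352 CPM) overlapped those of control pia (28.0 to 107) and control dura (51.3 to 112). For Fos the intervals stayed apart, the nearest being control brain (772 to 1437) and control pia (247 to 425). By edgeR's test 3 genes were lower in pia and dura in T cells (0.645% of genes called): Egr1 with a log2 fold change of -2.65 ± 0.44 (adjusted p = 0.0072), Fos with -2.44 ± 0.42 (adjusted p = 0.0085) and Jun with -2.06 ± 0.43 (adjusted p = 0.033).

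In macrophages Jun stood at 8612, 3644, 3302 and 1356 CPM in brain, 1804 and 1059 in pia, and 954 and 494 in dura, and the ranges of brain and pia overlapped. Egr1 overlapped too, since brain at 72 h (217 CPM) lay below control pia (335) and control dura (242). Egr1 (-2.39 ± 0.45) and Jun (-1.99 ± 0.38) were called lower in pia and dura (edgeR, adjusted p = 0.044 for each, 2.96% of genes called). In dendritic cells 0 of 10 were called (0.0222% of genes), 6 had an unadjusted p under 0.05, and DESeq2 called 2. Atf3 had the largest difference there (-3.45 ± 0.73, edgeR, adjusted p = 0.15). With the gene list as a term, Jun, Egr1, Fos and Dusp1 were lower in macrophages (21.5% of genes called), Jun, Atf3 and Egr1 in dendritic cells (0.731%), and Egr1, Fos, Jun and Dusp1 in T cells (1.89%). Junb and Jund were called in none of these 6 fits, although Junb in T cells passed the adjusted p with the gene-list term at -0.78 ± 0.08, short of 2-fold. None of the 10 genes was called in macrophages or T cells when the 10x kit version was a term or when control brain or either library at 24 h of pia or dura was left out, and none in macrophages without control pia or control dura. In macrophages these fits called 0 of all genes. In T cells they called 0 of 6317 without control brain, and 14 higher and 3 lower of 6361 with the kit term. Without pia 24 h these counts were 8 and 3 of 6121, and without dura 24 h 10 and 3 of 6071. Brain 72 h has a time term of its own, so the kit term takes up dura 24 h. The fit with the kit term and the fit without dura 24 h are therefore nearly the same comparison. Over these fits and the other alternatives the log2 fold changes were from -3.05 to -2.12 for Egr1, -2.83 to -2.08 for Fos and -2.56 to -1.56 for Jun in T cells, and from -2.89 to -1.95 for Egr1 and -2.45 to -1.76 for Jun in macrophages.

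Further early genes, from lists written with earlier results of these data known, gave a different picture between tissues. In macrophages, of 18 other early transcription factors 2 were higher in pia and dura and 0 lower in the fit to all libraries (2.96% of all genes called): Maff, a small Maf factor, at 2.57 ± 0.43 and Csrnp1 at 1.6 ± 0.31 (edgeR, adjusted p = 0.032 and 0.044). Their median was 1.38, against -0.83 for the 10 members and -0.16 for all genes. Of 18 feedback regulators Dusp2, a phosphatase like Dusp1, was higher (2.34) and Sgk1 (-3.30) and Rgs1 (-1.87) were lower. Of 8 early cytokines Cxcl1, a chemokine for neutrophils, was higher (5.27), of 12 heat shock genes Hspa1a was higher (2.22) and Hspb1 lower (-3.48), and of 10 upstream kinases and factors 0 were called. In T cells (0.645% of all genes called) the chemokines Ccl3 (-2.31) and Ccl4 (-1.92) were lower, 2 of 7 cytokines tested, and 0 of 14 transcription factors, 18 feedback regulators, 10 heat shock genes and 9 upstream genes were called. In dendritic cells 0 of each list were called (0.0222% of all genes). The gene-list term raised the count in macrophages to 10 higher and 2 lower of 18 transcription factors, where 21.5% of all genes were called, led by Nr4a3 (6.92) and Nr4a2 (4.70), with Klf2 (-2.29) and Myc (-1.32) lower.

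At 24 h, 0 genes of these lists were called in the fit to all libraries in any class. With the gene-list term, 3 of 18 transcription factors fell in macrophages (2.24% of all genes called), among them Egr3 (-1.49) and Klf2 (-1.17), and 5 of 18 feedback regulators, among them the Zfp36 relatives Zfp36l1 (-1.17) and Zfp36l2 (-1.14). In dendritic cells (1.77% of all genes called) 2 of 18 factors fell, Egr2 (-1.79) and Egr3 (-1.67), with 4 of 18 feedback regulators, among them Nfkbiz (-1.30) and Ier3 (-1.29), and 3 of 8 cytokines, among them Il1a (-2.46) and Tnf (-2.26). In microglia (2%) Egr3 fell (-1.43) and Tnf rose (1.41), and in T cells (0.409%) 0 were called. At 72 h against 24 h with that term, 2 of 8 cytokines fell in macrophages (1.75% of all genes called), Il1a at -2.56 and Ccl3 at -2.55, and 3 of 12 heat shock genes fell in microglia (4.66%), among them Hspa1b (-2.49) and Hspa1a (-1.52).

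The genes whose level was most like the mean of the 10 over the 112 sums were Klf6 (Pearson's r = 0.88), Ccnl1 (0.87), Ier5 (0.84), Slco2b1, Nfkbiz, Wsb1, Ppp1r15a, Trim47, Dnajb4 and Rhob (0.76), of 2985 genes. The sums share libraries and clusters, and these values are a description. With each cluster centred on its own mean, so that differences between libraries are left, the highest values were those of Klf6 (0.82), Klf2 (0.81) and Ccl4, in that order. Among the 10 genes themselves with clusters centred, Fosb went with Zfp36 (r = 0.87), Junb with Ier2 (0.87), Fos with Jun (0.82) and Junb against Fosb (-0.64).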

How the data were processed

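Droplet 3′ single-cell libraries were made from leukocytes of 3 tissues. The authors deposited filtered matrices of UMI counts, made with Cell Ranger 6.0 on mm10 per the labels, and a table of clusters. The counts are not normalized. Doublets were not removed again. Counts were summed per library and cluster, or class (microglia, macrophages, dendritic cells, T cells), over annotated cells, with at least 30 cells; 4397 barcodes without a cluster were left out. The 10 genes and all gene lists were chosen with earlier results of these data known. Named genes were the 10 members, per list the 2 highest and 2 lowest called genes, and the genes most like the members. Class sums were tested with edgeR 4.0.16 (quasi-likelihood, TMM, filterByExpr) in R 4.3.3, and again with DESeq2 1.42.0. Libraries, not cells, were the replicates. The labels do not say that the replicates of brain at 24 h came from separate mice, so their spread may be technical. No paired analysis was possible because the groups compared share fewer than 2 replicate numbers. The fits were tested on simulated data. Shares of cells used random thinning to 500 UMIs. Fits with the gene list as a term, with the longer-list libraries alone, and ratios within clusters were chosen after seeing the data. The ranking of genes by likeness with libraries centred is not reported here.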

Additional observations from a re-analysis of the deposited data

Results flagged for a closer look

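In 7 instances the log2 ratio of 24 h to control of a gene had opposite signs in 2 tissues beyond the 95% counting intervals. The ratios of pia and dura each come from 1 library per group, of the longer gene list. Those of brain are means over both 24 h replicates, so they include the shorter-list replicate 2. Replicates 1 and 2 lay on the same side of brain control. They had 4325 and 1607 CPM against 8452 for Junb in macrophages, and 3359 and 1759 against 5196 for Jund. Jun in microglia had 13041 and 13958 against 11238. The difference between tissues was not tested, and counting intervals do not cover the spread between mice. In dura the libraries at 24 h and of control mice are also listed with different versions of the 10x kit. Junb in macrophages had -1.68 in brain, -0.10 in pia and 0.20 in dura, so brain minus dura was -1.88 and pia minus dura -0.30. Jund in macrophages had -1.10 in brain and 0.11 in dura, a difference of -1.21. In dendritic cells pia minus dura was -0.40 for Junb and -0.92 for Jund. Jun in microglia had 0.26 in brain, -0.24 in pia and -0.88 in dura, so brain minus pia was 0.50 and brain minus dura 1.15.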

How the results depend on the processing

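Of the alternatives to a count or summary value, 162 left it within its limits and 41 moved it, and of those to a single gene's fold change 138 kept the call, 27 lost it, 10 gained it and 0 turned its direction. At 24 h against control the count of the 10 genes called rose from 0 to 3 in macrophages and 1 in dendritic cells with the gene-list term and to 1 in each with the longer-list libraries alone. Those fits and the fit without replicate 2 are much the same comparison. Leaving out 1 library gave 0 to 4 in macrophages (4 without brain 24 h replicate 2) and 0 to 1 in dendritic cells (1 without either brain replicate at 24 h). At 72 h against 24 h the gene-list term gave 1 in macrophages and 1 in T cells. Leaving out 1 library gave 0 to 7 in microglia, 0 to 7 in macrophages, 0 to 6 in dendritic cells and 0 to 9 in T cells, the highest without replicate 2, when 72 h is compared with replicate 1 alone. Between tissues the count in macrophages went from 2 to 4 with DESeq2, the gene-list term or the longer-list libraries, to 0 with kit version as a term, and to 0 to 4 without 1 library (4 without replicate 2, 1 without replicate 1, 0 without control brain or any single library of pia or dura). In dendritic cells it went from 0 to 4 without the count filter, 2 with DESeq2, 3 with a minimum of 10 cells, 4 with thinned cells, 3 with the gene-list term, 2 with the longer-list libraries and 0 to 7 without 1 library (7 without replicate 1, 2 without replicate 2). In T cells it went from 3 to 5 with library size scaling, without the filter or with thinned cells, to 0 with kit version as a term, and to 0 to 5 without 1 library (5 without replicate 1, 0 without control brain or the 24 h library of pia or dura). The tissue fits in macrophages that called 0 of the 10 genes called 0 of all genes. Without replicate 2, 1334 genes were higher and 1052 lower between tissues in macrophages, of 10813. Without replicate 1 these were 1209 and 1342 of 8890 in dendritic cells and 168 and 356 of 6305 in T cells. At 24 h without replicate 2, 106 were higher and 89 lower of 10813 in macrophages. At 72 h against 24 h without replicate 2, 1969 genes were higher and 1474 lower of 8097 in microglia. In macrophages these counts were 2283 and 1915 of 10813, in dendritic cells 609 and 747 of 8790, and in T cells 467 and 259 of 6252. The high member counts at 72 h therefore go with many calls over all genes, and they compare 1 brain library with 1 other. In dendritic cells at 24 h, 66 were higher and 90 lower of 8890 without replicate 1, and 66 and 85 of 8790 without replicate 2. The cause of the moves in the counts was not tested. Over all genes, edgeR called 0 at 24 h and at 72 h in each class, and DESeq2 called up to 16 higher and 6 lower at 24 h and up to 18 higher and 76 lower at 72 h, both in macrophages. Between tissues edgeR and DESeq2 called 331 and 1007 genes in macrophages, 2 and 10 in dendritic cells and 41 and 39 in T cells. With a minimum of 10 cells, 5 genes were highest in a microglia cluster, not 8. Most groups held 1 library, and the main fits had 2 or 3 residual degrees of freedom. A call missed here therefore does not show that a gene was unchanged. Fits with the gene-list term or the longer-list libraries alone had 2 residual degrees of freedom (1 in dendritic cells), so their calls rest on fewer.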

Other observations

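The study's supplementary list of libraries gives the newer 10x kit (version 3) for brain 72 h and dura 24 h. The gene lists and the shared barcodes instead set brain 24 h replicate 2 and brain 72 h apart. The fits with kit version as a term used the listed versions, and so in effect set dura 24 h aside. Atf3 and Zfp36 in T cells of brain 24 h replicate 1 (22.4 CPM each) rest on 1 UMI each. In T cells of the shorter-list libraries Fosb stood at 1095 and 1200 CPM, against 15.6 to 134 CPM in the 6 longer-list libraries. Control brain held 20 dendritic cells, under the minimum of 30, and gave no value for that class.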
